A study of Bos grunniens with 18 samples.

Results

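Ion and water transport in the yak epididymis was described here through 5 genes. They were CFTR, CA12, AQP1, AQP9 and ATP1B1, taken by gene symbol from the 18467 genes of the deposited expression table. Each symbol matched 1 gene, and the 5 genes held 22 of the 41804 sites listed over the authors' 3 comparison tables. The study mapped m6A, the N6-methylated form of adenosine in messenger RNA, along the epididymis of the yak (Bos grunniens). Tissue came from 6 healthy adult male yaks aged 4 years and was divided into head (caput), body (corpus) and tail (cauda). Per region there were 3 libraries of RNA pulled down with an m6A antibody and 3 libraries of input RNA that skipped the pull-down, 18 in all. The animals carried no treatment or genetic change, and no label ties a library to an animal or tells of pooling.

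The epididymal duct carries sperm from the testis to the vas deferens, and its epithelium sets the salt, water and acid content of the fluid around them. Bicarbonate is kept low in that fluid, which holds sperm quiescent, and water is taken up along the duct so that sperm become concentrated. Chloride and bicarbonate pass the apical membrane through channels and exchangers, carbonic anhydrases interconvert carbon dioxide and bicarbonate, aquaporins let water follow, and the sodium pump of the basolateral membrane supplies the driving gradient. CFTR (ENSBGRG00000003733) is the apical anion channel that is defective in cystic fibrosis. CA12 (ENSBGRG00000026023) is a membrane-bound carbonic anhydrase with its active site outside the cell. AQP9 (ENSBGRG00000011032) is an aquaporin that also passes glycerol and other small solutes, and it is known from the apical membrane of principal cells, the main absorptive cells of the duct. AQP1 (ENSBGRG00000003951) is a water channel known from endothelium and from the efferent ducts. ATP1B1 (ENSBGRG00000014219) is the beta 1 subunit of the Na,K-ATPase, which the catalytic alpha subunit needs to reach the membrane.

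Apart from ATP1B1, the 5 genes fell into 2 sets by where their candidate adenosines were listed. CFTR and CA12 had most candidates in caput. Their only called differences were values lower than in caput, for CFTR in corpus alone and for CA12 in both corpus and cauda. AQP9 and AQP1 were abundant transcripts with the same candidates in nearly every region and no candidate classed as m6A. They had no called difference in the comparisons that list their sites, and AQP1 is not listed for corpus over caput. ATP1B1 belonged to neither set, with 4 candidates in caput, 8 in corpus and 8 in cauda, and its sites were not called in any comparison.

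A site in the comparison tables is a whole peak, printed here as chromosome, first and last base counting from 1, with its strand. No source used here names the genome build, and whether a site lies in a coding exon or a UTR was not analysed here. Many sites join stretches of neighbouring exons, so that their span is longer than their own length. The files hold no sequence for the sites, and no sequence is printed.

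CFTR was the first gene with a called difference. Its site at chr4:76157374-76159015 on the plus strand covers 249 bases within a span of 1642 bases. For corpus over caput, the authors' deposited table gives this site a ratio of 0.506, a log2 fold of -0.98, with a p-value of 2.6e-04 and an adjusted p of 0.020. The same site in cauda over caput has a log2 fold of -0.19 and an adjusted p of 0.73 by the authors' deposited table. The end of that site, chr4:76158866-76159015, has a log2 fold of 0.92 for cauda over corpus by the authors' deposited table, with a p-value of 0.036 and an adjusted p of 0.32. Thus the value was lower in corpus than in caput, while the cauda site was not called against either of the other regions. These tables share the libraries of a region, so their values are not independent of each other. Whether the folds are relative to input is not stated, so a change in methylation and one in transcript abundance cannot be told apart. A further CFTR site, chr4:76100063-76131931, spans 31869 bases but is 150 bases long, and the authors' deposited table lists it only for cauda over caput, with a log2 fold of 0.13 and an adjusted p of 0.98.

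CA12 had lower values in both regions beyond the caput. Its site at chr11:33231602-33231998 on the plus strand has a ratio of 0.549 for corpus over caput by the authors' deposited table, a log2 fold of -0.86, with a p-value of 4.5e-04 and an adjusted p of 0.028. For cauda over caput the authors' deposited table gives chr11:33231651-33231998 a ratio of 0.426, a log2 fold of -1.23, with a p-value of 1.0e-04 and an adjusted p of 0.014. The 2 sites end at the same base and differ only in their start, so they describe 1 stretch of the transcript. A neighbouring CA12 site, chr11:33232245-33232394, has a log2 fold of -0.26 and an adjusted p of 0.65 for corpus over caput by the authors' deposited table. No CA12 site is listed for cauda over corpus.

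The 3 called folds lay near the low end of their tables. In the corpus over caput table, 1.66% of all sites had a lower log2 fold than the CFTR site and 2.57% a lower one than the CA12 site, by the authors' deposited table. In the cauda over caput table, 0.550% of all sites had a lower log2 fold than the CA12 site, by the authors' deposited table. Some marker lists of other cells, but not all, had sites called lower in the same comparisons. Of all sites, 1.86% were called lower for corpus over caput and 0.861% for cauda over caput, by the authors' deposited table. For corpus over caput, the authors' deposited table calls lower 4 of 10 sites of clear and narrow cell genes (median log2 fold -0.40). It also calls lower 3 of 4 of multiciliated cell genes, with the other 1 called higher, and 2 of 3 of sperm and spermatid genes. All 3 erythrocyte sites, called lower, belong to 1 gene, HEMGN, the only listed erythrocyte gene with a site. Endothelial genes had 1 of 15 sites called lower. Smooth muscle (0 of 13), fibroblast (0 of 8), basal cell (0 of 7) and principal cell (0 of 1) genes had no lower call. Macrophage and lymphocyte genes had 0 of 13 sites called lower and 1 called higher. For cauda over caput, 1 of 7 sites of clear and narrow cell genes, 2 of 6 of multiciliated cell genes and 0 of 6 of sperm and spermatid genes were called lower by the authors' deposited table. Endothelial (1 of 17) and fibroblast (1 of 5) genes also had a lower call there. Smooth muscle (0 of 9), macrophage and lymphocyte (0 of 12), basal cell (0 of 3), principal cell (0 of 1) and erythrocyte (0 of 1) genes did not. The part of these cells in the CFTR and CA12 folds was not tested. The CFTR value for cauda over corpus lay above 98.1% of all sites of the authors' deposited table without being called.

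AQP9 had 2 sites on the minus strand, and neither differed between regions by the authors' test. The site at chr11:39294535-39294884 has a log2 fold of -0.10 for corpus over caput, with an adjusted p of 0.87, and of 0.13 for cauda over corpus, with an adjusted p of 0.67, by the authors' deposited table. Its slightly shorter form, chr11:39294585-39294884, has a log2 fold of 0.026 for cauda over caput and an adjusted p of 0.81 by the authors' deposited table. The second site, from chr11:39241434, has log2 folds of 0.10 for cauda over caput and 0.11 for cauda over corpus, with adjusted p of 0.86 and 0.84, by the authors' deposited table. It is not listed for corpus over caput. All AQP9 folds were thus close to 0, in the most abundant transcript of the 5.

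AQP1 had a single site, chr4:59951729-59951878, on the plus strand. Both cauda over caput and cauda over corpus give it a log2 fold of -0.21 by the authors' deposited table, with adjusted p of 0.73 and 0.64. The authors' deposited tables give the same log2 fold in both comparisons for 8 of the 4102 sites with the same ends in both. AQP1 has no site in the corpus over caput table.

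ATP1B1 had the most sites, 4 places along the plus strand of chromosome 14. The first, chr14:32963771-32963967, has a log2 fold of 0.78 for cauda over corpus by the authors' deposited table, with a p-value of 0.0045 and an adjusted p of 0.13. In cauda over caput the authors' deposited table gives that site a log2 fold of 0.40 and an adjusted p of 0.83. The second, chr14:32964114-32964261, has log2 folds of 0.53 for cauda over caput and 0.49 for cauda over corpus by the authors' deposited table, with adjusted p of 0.60 and 0.51. Both of these places had positive folds in cauda, and none of the 4 values was called.

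The third ATP1B1 site, chr14:32983935-32986672, is 197 bases long and was the only one listed in all 3 comparisons. Its log2 folds by the authors' deposited table are 0.19 for corpus over caput, -0.12 for cauda over caput and -0.32 for cauda over corpus, with adjusted p of 0.74, 0.99 and 0.39. The fourth, chr14:32991315-33045075, has a log2 fold of -0.14 and an adjusted p of 0.94 for cauda over corpus by the authors' deposited table. Within this gene, the positive folds lay at the first 2 places for cauda over corpus and the negative ones at the other 2.

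**Figure D1:**
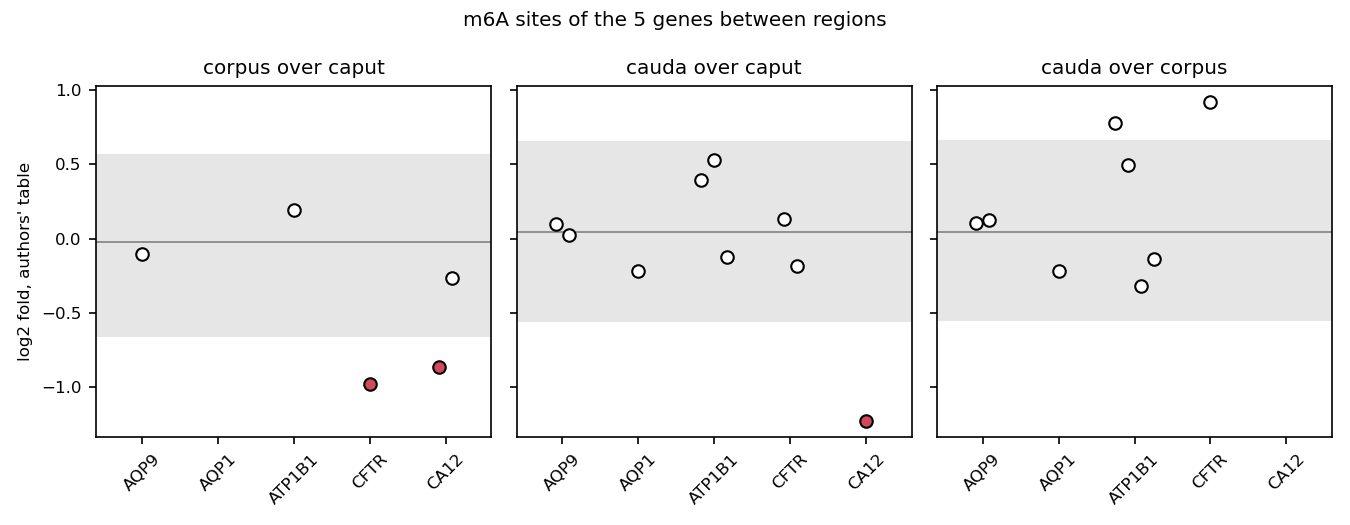
Log2 fold of every site of the 5 genes in each of the authors' deposited comparison tables, with filled points for an adjusted p under 0.05 and open points for the others. The grey band runs from the 5th to the 95th percentile of all sites of that table and the grey line is their median. The 2 filled points of corpus over caput (CFTR and CA12) and the 1 of cauda over caput (CA12) lie below the band, and no AQP9 or AQP1 point leaves it.

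Counted by comparison, the 5 genes had few sites. For corpus over caput, 2 of their 5 sites were called lower and 0 higher, and 2 had an unadjusted p under 0.05, by the authors' deposited table. Of all 14061 sites of that table, 2.98% were called in either direction, 1.86% were called lower, and 16.4% had an unadjusted p under 0.05. The median log2 fold was -0.26 over the 5 sites and -0.02 over all sites of the authors' deposited table.

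For cauda over caput, 1 of their 9 sites was called, as lower, and the same 1 had an unadjusted p under 0.05, by the authors' deposited table. Among all 13826 sites, 2.27% were called in either direction, 0.861% were called lower, and 17.2% had an unadjusted p under 0.05. The median log2 fold was 0.03 over the 9 sites and 0.04 over all sites of the authors' deposited table.

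For cauda over corpus, 0 of 8 sites were called and 2 had an unadjusted p under 0.05, by the authors' deposited table. The share called among all 13917 sites was 1.96%, and the share with an unadjusted p under 0.05 was 16.4%. The median log2 fold was 0.12 over the 8 sites and 0.05 over all sites of the authors' deposited table. The tables hold no values per library, so the spread between libraries behind a fold cannot be given, and the authors' p-values are the only measure of error.

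Candidate adenosines add a finer view. Each region has 1 deposited list of candidates with the authors' combined prediction score, and a candidate is classed as an m6A site of low confidence from a score of 0.557, moderate from 0.584, high from 0.620 and very high from 0.676. A position listed in several regions has 1 score, the same in each, since 0 of 97619 such positions differed. A score therefore ranks adenosines and carries no measure of methylation in a region, while presence in a region's list does differ. Over the sites of the 5 genes there were 54 distinct candidates with scores from 0.265 to 0.670, and 10 of them were classed as m6A. Of the 54, 19 were listed in all 3 regions, 10 in 2 regions and 25 in 1 region.

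CFTR candidates differed between the lists. In caput, 11 candidates lay in its sites and 2 were classed as m6A, both with high confidence, at position 76100064 (score 0.669) and position 76131918 (score 0.623) of chromosome 4. Both lie in the long site that was not called. The corpus list held 0 CFTR candidates, and the cauda list held 5, of which 0 were classed. All 5 of those lay between position 76158828 and position 76159004, at the end of the site that was lower in corpus. The highest score there was 0.487, below the lowest class, so the called CFTR site held no adenosine that the authors classed as m6A.

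CA12 had 17 candidates in caput, 5 of them classed, 2 in corpus, 1 of them classed, and 0 in cauda. Its highest score was 0.670, with high confidence, at position 33231684 of chromosome 11, inside both called sites. Of the other 3 classed adenosines in the longer of these sites, position 33231633 had moderate confidence, while position 33231720 and position 33231855 had low confidence. The corpus list kept only position 33232306 and position 33232343 of the neighbouring site, the latter with a score of 0.558. Every CA12 candidate of the called stretch was thus listed in caput alone.

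The 2 aquaporins were listed almost without change. AQP1 had the same 5 candidates in each region, with scores from 0.375 to 0.490. AQP9 had 11 candidates in caput and corpus and 10 in cauda, with scores from 0.265 to 0.521. None of these 16 distinct adenosines reached the score of the lowest class.

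ATP1B1 had 4 candidates in caput, 8 in corpus and 8 in cauda, with 1, 3 and 1 classed as m6A. Position 32986552 of chromosome 14, with a score of 0.575, was classed in all 3 regions. Position 32991327 (score 0.611) and position 32991440 (score 0.645) were listed in corpus only. The 2 candidates of the second site, position 32964132 and position 32964208, were listed in cauda only and had scores of 0.338 and 0.296.

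Summed over the 5 genes, 8 of 48 candidates were classed in caput (16.7%), 4 of 26 in corpus (15.4%) and 1 of 28 in cauda (3.57%). Over all positions of the deposited lists the classed share was 19.1% in caput, 19.3% in corpus and 19.1% in cauda. Candidates within a site share 1 peak and are not separate measurements, so no interval or test is given for these shares.

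**Figure D2:**
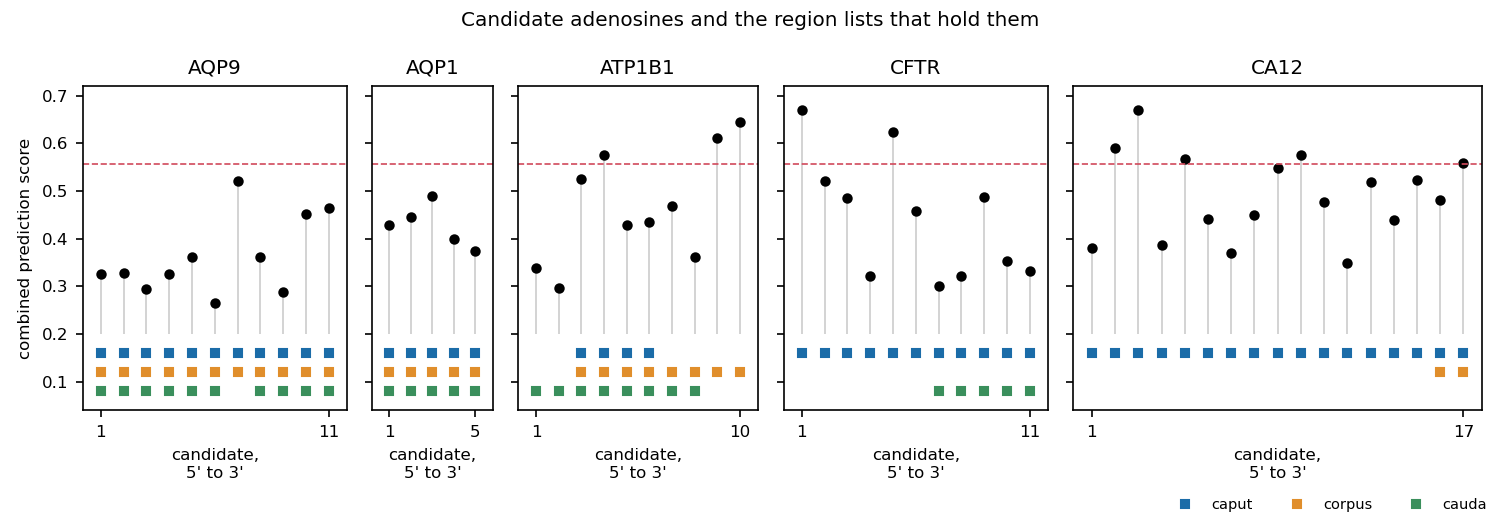
Combined prediction score (no unit) of each distinct candidate adenosine of the 5 genes, in order along the transcript, with the dashed line at the lowest score classed as m6A (0.557). Squares below each point mark the region lists that hold it. AQP1 and AQP9 candidates lie below the line and have squares in nearly every region, while most CA12 candidates have a caput square alone and CFTR has no corpus square.

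The input libraries give the abundance of the transcripts themselves. Their 9 columns hold FPKM values, fragments scaled by transcript length and library depth, so that levels can be compared between genes. The columns carry the codes EA, EB and EC, 3 each, and none of these codes is a region name in the labels. No code was therefore assigned to a region, each library's value is given, and no test was run between codes. The steps between low FPKM values put the 9 libraries within 0.961 and 1.21 times the depth of EA2_1, and gave the fragments behind each value as the smallest whole numbers that fit, with intervals that cover counting error only.

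AQP9 was the most abundant of the 5 in each library. Its FPKM was 382, 361 and 503 in EA2_1, EA3_1 and EA4_1, 728, 458 and 542 in EB1_3, EB1_4 and EB2_1, and 329, 466 and 483 in EC2_2, EC3_2 and EC4_1. The codes overlap, and the highest library was 2.21 times the lowest. The median of 466 FPKM lay above that of 98.8% of all genes. With 22763 to 46949 fragments per library, counting error is small, and the differences within a code exceed it.

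AQP1 ranked second. Its FPKM was 50.3, 23.8 and 26.4 in the EA libraries, 69.7, 53.5 and 44.7 in the EB libraries, and 48.4, 17.1 and 28.7 in the EC libraries. EB1_3 was highest and EC3_2 lowest, a ratio of 4.07, and the codes overlap because EA2_1 and EC2_2 lay within the range of EB. The median of 44.7 FPKM lay above 88.4% of genes.

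ATP1B1 had 29.3, 14.6 and 19.1 FPKM in the EA libraries, 18.6, 16.6 and 12.7 in the EB libraries, and 31.8, 13.9 and 22.9 in the EC libraries. The 2 highest libraries, EC2_2 and EA2_1, carry different codes, and the range was 2.50-fold. The EA and EC columns share the numbers 2, 3 and 4 in their names, and both ATP1B1 and AQP1 were highest in number 2, lowest in number 3 and between in number 4 under each of these codes. The labels do not say what these numbers mark. Its median of 18.6 FPKM lay above 76.8% of genes.

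CFTR was a low transcript with the widest range of the 5. Its FPKM was 2.75, 2.20 and 3.57 in the EA libraries, 1.12, 0.109 and 0.201 in the EB libraries, and 1.03, 0.462 and 0.901 in the EC libraries. All 3 EA libraries lay above the other 6, with the lowest EA value 1.97 times the highest of the others. EB and EC overlap through EB1_3, and the highest library was 32.7 times the lowest. The lowest value, 0.109 FPKM in EB1_4, rests on 14 fragments, with an exact Poisson 95% interval from 0.060 to 0.183 FPKM, while the highest, 3.57 FPKM in EA4_1, rests on 405 fragments, with an interval from 3.23 to 3.93 FPKM.

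CA12 was similarly low. Its FPKM was 1.68, 1.69 and 0.921 in the EA libraries, 0.775, 0.501 and 0.276 in the EB libraries, and 1.84, 0.400 and 0.557 in the EC libraries. The highest value was in EC2_2, above all EA libraries, so EA and EC overlap, while each EB value lay below each EA value. The interval of the EA value nearest to EB, 0.718 to 1.16 FPKM in EA4_1, overlaps that of EB1_3, 0.594 to 0.993 FPKM. The median of 0.775 FPKM lay above 31.1% of genes, and that of CFTR, 1.03 FPKM, above 33.7%.

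**Figure D3:**
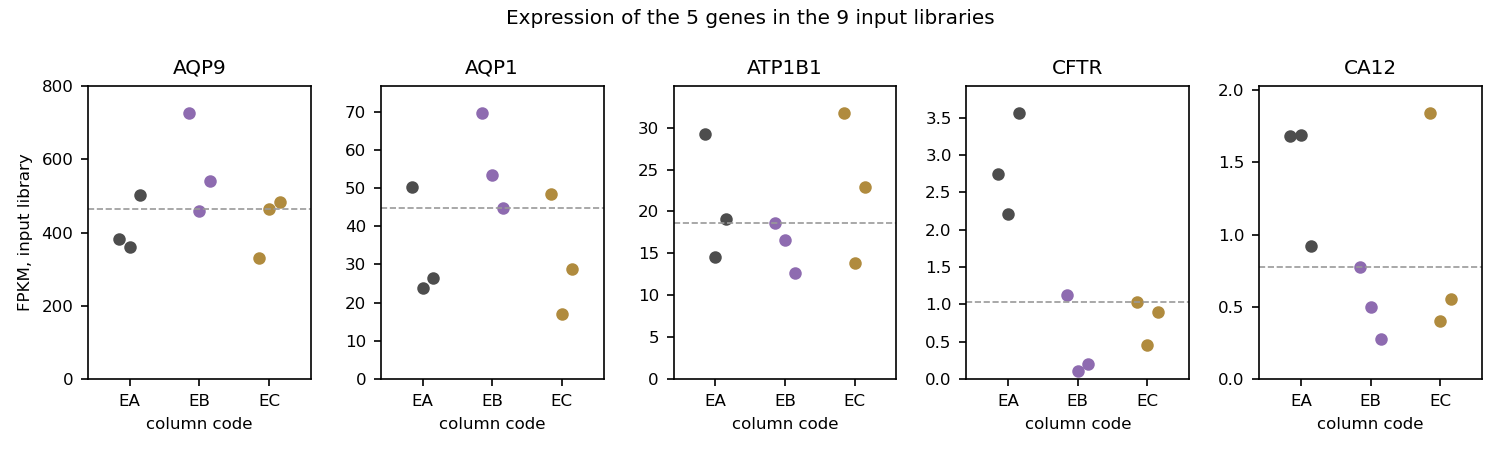
FPKM of the 5 genes in each of the 9 input libraries, 1 point per library, grouped and coloured by column code, with a dashed line at the median over the 9. Each axis starts at 0 and has its own scale. CFTR has its 3 EA points above all others (2.20 to 3.57 FPKM), while AQP9, AQP1 and ATP1B1 points of the 3 codes overlap.

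The order of levels was stable at the top. AQP9 lay above AQP1, AQP1 above ATP1B1 and ATP1B1 above CFTR in 9 of 9 libraries each. CFTR lay above CA12 in 6 of 9 libraries, so the order of these neighbours changed between libraries. In EA4_1 CFTR had 3.57 FPKM and CA12 0.921 FPKM, while in EB1_4 they had 0.109 and 0.501 FPKM. The ranges of AQP1 (17.1 to 69.7 FPKM) and ATP1B1 (12.7 to 31.8 FPKM) overlap between libraries, although their order held within each library.

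Within their families, the 5 genes took very different shares. AQP9 made up 83.6% to 94.8% of the summed FPKM of 11 aquaporins, with a median of 91.6%, and AQP1 made up 3.49% to 12.3%, with a median of 7.55%. The other 9 aquaporins thus shared what little remained, led by AQP7, a glycerol-passing member, at a median of 4.45 FPKM. ATP1B1 gave 21.7% to 40.4% of the summed FPKM of the 3 beta subunits of the sodium pump, with a median of 26.4%. ATP1B3 and ATP1B2, the other beta subunits measured, had medians of 24.5 and 23.0 FPKM. CA12 gave 0.254% to 2.17% of the summed FPKM of 13 carbonic anhydrases, with a median of 0.915%.

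Other genes of the pathway lists had these levels. SLC9A3R1, a scaffold protein that binds the tail of CFTR, had a median of 26.6 FPKM, the highest median counted among anion channels and bicarbonate transporters, though not the highest level in every library. CA5B, a mitochondrial carbonic anhydrase, had a median of 35.4 FPKM, with 6.96 to 11.9 FPKM in the EA libraries and 27.3 to 90.4 FPKM in the other 6. Slc12a7, a potassium chloride cotransporter, had the highest median of the cation channels and cotransporters, 15.5 FPKM. In the EC libraries, however, SCNN1A, a subunit of the epithelial sodium channel, had 85.8 to 206 FPKM beside 13.0 to 16.2 FPKM for Slc12a7.

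**Figure D4:**
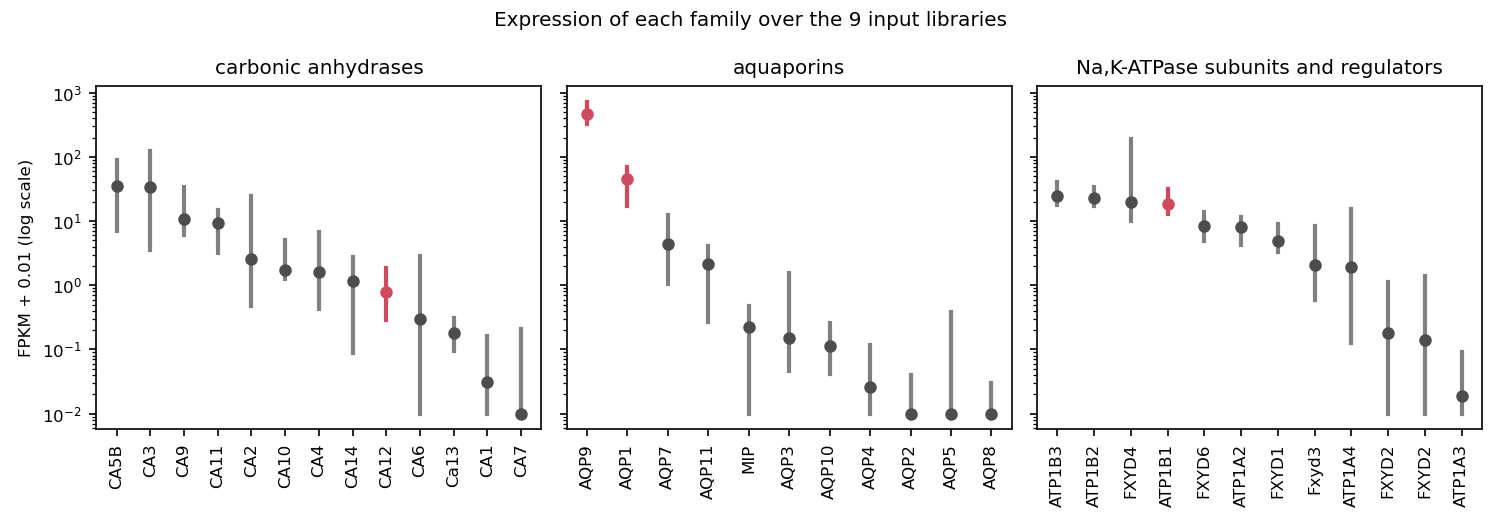
FPKM of carbonic anhydrases, aquaporins and Na,K-ATPase subunits and regulators on a log scale (0.01 added), with a point at the median over the 9 input libraries and a line from the lowest to the highest library. The 5 genes' members of these families are in red. AQP9 (median 466 FPKM) stands above AQP1 (44.7) and the other aquaporins, whereas CA12 (0.775) has 8 carbonic anhydrases above it.

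The 5 pathway lists are counted here over 62 genes of the expression table, the 5 genes included. For corpus over caput, 19 of the 62 had 23 sites by the authors' deposited table, with 0 called higher and 2 lower, which are the CFTR and CA12 sites, and 6 at an unadjusted p under 0.05, beside 2.98% and 16.4% of all sites. In cauda over caput, 20 had 29 sites by the authors' deposited table, with 1 called higher, 1 lower and 4 at an unadjusted p under 0.05, beside 2.27% and 17.2% of all sites. In cauda over corpus, 16 had 25 sites by the authors' deposited table, with 0 called and 6 at an unadjusted p under 0.05, beside 1.96% and 16.4% of all sites. The 5 genes themselves gave 2, 1 and 2 of the sites at an unadjusted p under 0.05. The medians of the log2 folds were -0.07, 0.06 and 0.14, beside -0.02, 0.04 and 0.05 over all sites of the authors' deposited tables.

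Beyond the 5, AQP11 alone of the genes counted had a called site, for cauda over caput and higher. AQP11, an aquaporin of intracellular membranes, has a log2 fold of 1.47 and an adjusted p of 0.024 at chr29:25735154-25735302, plus strand, by the authors' deposited table. Its level was 0.261 to 0.494 FPKM in the EA libraries and 1.84 to 4.07 FPKM in the other 6.

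The input libraries hold RNA of all cells of the tissue, and in bulk RNA fewer cells of a type and less RNA per cell cannot be told apart. The label epididymis was checked against markers: 5 of the 8 listed principal cell genes had a row, and Lcn5, an epididymal lipocalin, had 1951 to 113865 FPKM. Of the other 4, GPX5, a secreted glutathione peroxidase, had 1002 to 2639 FPKM in EA and 1.23 to 60.2 FPKM elsewhere. SPINT4 was instead highest in EB, at 10765 to 23297 FPKM, with 11.9 to 4075 FPKM in EA and 38.2 to 3253 FPKM in EC. CRISP1 had 153 to 903 FPKM, and the defensin DEFB121 had 0 to 5.81 FPKM. The principal cell sum was lowest in EC2_2, at 2145 FPKM against 16736 FPKM in the next library, and AQP9 was lowest there too, at 329 FPKM. Lcn5 alone gave 1951 of those 2145 FPKM. In EA3_1, however, the sum was highest, at 117964 FPKM, beside the second-lowest AQP9, 361 FPKM. The highest AQP9, 728 FPKM in EB1_3, stood beside a sum of 39374 FPKM. The part of principal cells in the AQP9 values was not tested. Genes of clear and narrow cells, the acid-secreting cells of the duct, were measured for 8 of 8 listed. Their summed FPKM was 27.2 to 37.3 in the EA libraries, 5.56 to 16.1 in EB and 5.71 to 6.78 in EC, so they were highest in the same 3 libraries as CFTR. In EB1_3, the EB library with the most CFTR, this sum was also the highest of EB, at 16.1 FPKM. FOXI1, the defining transcription factor of these cells, had 1.87 to 5.10 FPKM in EA and 0.218 to 1.87 FPKM elsewhere. ATP6V0D2, a proton pump subunit and by median the most abundant of the 8, was instead highest in EB1_3, at 9.77 FPKM against 4.73 to 6.99 FPKM in EA, and it made up most of the EB1_3 sum. The part of these cells in the CFTR values was not tested.

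Genes of multiciliated cells, which line the efferent ducts, were measured for 6 of 6 listed. They summed to 32.3 FPKM in EA2_1, 7.54 and 12.8 FPKM in the other EA libraries, and 0.575 to 0.809 FPKM in EB. In EC they summed to 34.1 FPKM in EC2_2 and 1.35 FPKM in both other libraries. TEKT1 alone gave 21.5 FPKM of the EC2_2 sum and 15.3 FPKM of the EA2_1 sum. RSPH4A had 0.022 FPKM in EC2_2 against 1.84 FPKM in EA2_1, and DNAH5 0.081 against 0.330 FPKM. FOXJ1, DNAI2 and CCDC39 had 4.01, 6.85 and 1.69 FPKM in EC2_2 and 6.34, 6.77 and 1.76 FPKM in EA2_1. Sperm and spermatid genes, with 6 of 7 measured, summed to 735 to 1087 FPKM in EA, 3.40 to 88.8 FPKM in EB, 2059 FPKM in EC2_2 and 347 FPKM in the other 2 EC libraries. EC2_2, which stood apart from the other EC libraries in this way, held the highest CA12 and ATP1B1 values. EA2_1, whose multiciliated sum was close to that of EC2_2, held the second-highest ATP1B1 value. The third-highest ATP1B1 value, 22.9 FPKM in EC4_1, stood beside a multiciliated sum of 1.35 FPKM. EA3_1 had 14.6 FPKM of ATP1B1 beside a sum of 7.54 FPKM. Without EC2_2, the highest CA12 and ATP1B1 values were 1.69 and 29.3 FPKM, in EA3_1 and EA2_1. The part of these cells in the CA12 and ATP1B1 values was not tested.

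Endothelial genes, with 8 of 8 measured, summed to 49.0 to 64.7 FPKM in EA, 84.1 to 121 FPKM in EB and 61.1 to 117 FPKM in EC. EB1_3 had both the highest endothelial sum and the highest AQP1, and EC3_2 the lowest AQP1 with 61.1 FPKM, but EA2_1 had 50.3 FPKM of AQP1 beside the lowest endothelial sum. Erythrocyte genes, another known site of AQP1, had 4 of 7 measured and summed to 0.729 to 3.73 FPKM. HBA had 0.729 to 2.71 FPKM and HEMGN 0 to 2.04 FPKM, while ALAS2 and SLC4A1 were at 0 to 0.022 FPKM and 0 to 0.0077 FPKM. The part of endothelial cells and of erythrocytes in the AQP1 values was not tested.

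**Figure D5:**
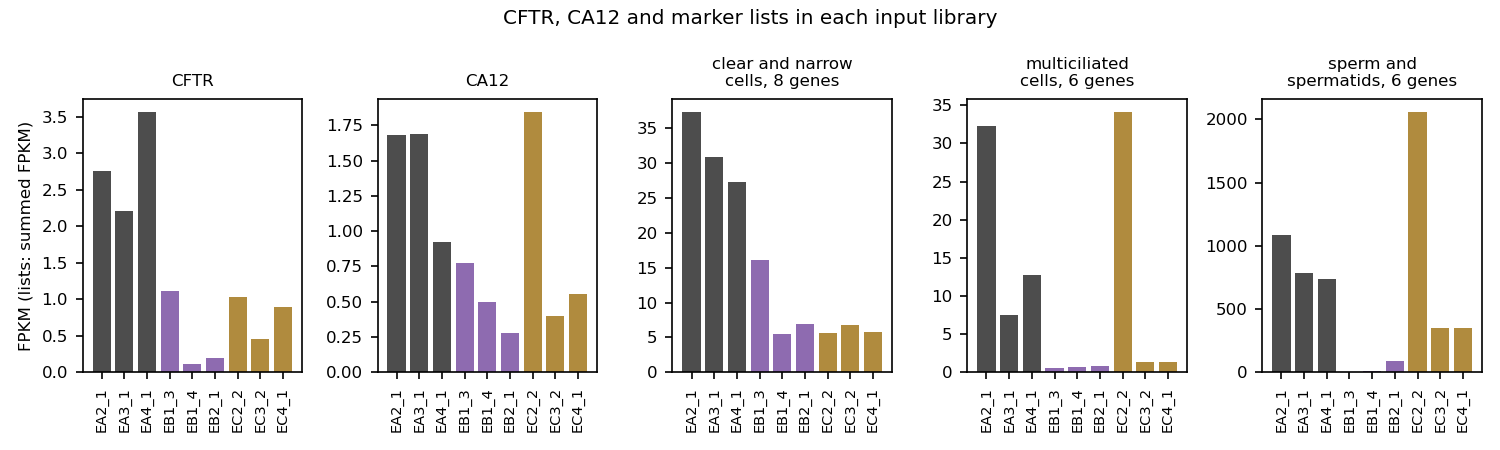
FPKM of CFTR and CA12 and summed FPKM of 3 marker lists in each of the 9 input libraries, as bars from 0 coloured by column code, each panel with its own scale. The clear and narrow cell sum is highest in the 3 EA libraries (27.2 to 37.3), as CFTR is, and EC2_2 has the highest bars for CA12, multiciliated cells and sperm.

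Likeness of profile was measured as Pearson's r of log2(FPKM + 1) over the 9 libraries, among 12061 genes with a symbol and a median of at least 1 FPKM. The points share tissue, depth and cell makeup, so r is a description only. The genes most like CFTR were MCOLN2 (r = 0.99), TLR3 (r = 0.98) and DHX40 (r = 0.98). MCOLN2, an endolysosomal cation channel, had 14.0 to 17.2 FPKM in EA and 4.82 to 10.5 FPKM elsewhere. For CA12 they were RAB32 (r = 0.97), TMEM204 (r = 0.96) and DNAJC21 (r = 0.96), for AQP1 VPS11 (r = 0.96), Rhob (r = 0.95) and SENP3 (r = 0.95). For AQP9 they were AMD1 (r = 0.95), SELENOI (r = 0.93) and CNTNAP2 (r = 0.92), and for ATP1B1 INTS6 (r = 0.99), HCFC2 (r = 0.99) and Whrn (r = 0.96). Among the 5 genes themselves, r ran from -0.67 for CA12 with AQP9 to 0.69 for CFTR with CA12.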

How the data were processed

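The labels describe poly(A) RNA, fragmented, with or without m6A immunoprecipitation, sequenced in pairs. Trimmomatic, HISAT2 and deepTools were used, per the submitters' processing notes; no source used here names the peak caller, site predictor, differential test or genome build. Per the file headers, each comparison table holds a p-value of the authors, its adjusted form, their ratio (fold) between 2 regions and its log2 value for each site. Whether the folds are relative to input is not given, so methylation and transcript abundance are not separated. The direction of the folds was checked on unspliced sites: those with candidates in the first-named region's list only had median log2 folds of 0.32, 0.39 and 0.40, and those in the second's only -0.38, -0.27 and -0.30. The deposited candidate lists give a combined score per adenosine, and repeated lines were counted once. The deposited FPKM values were made by the authors with an estimator not given here. Starts in the comparison tables count from 0 and were raised by 1.

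Sites were called at the authors' adjusted p under 0.05, with no test added. Candidates were assigned by site span, introns included, each once per region. The 9 input columns match no region label and were described per library. Relative depth and whole fragments (tolerance 0.001) were recovered from the FPKM steps and tested on simulated data. Alternatives covered the threshold, the fold, the span, the class, the pseudocount, the filter and the scaling. Python 3.11.15 with pandas 2.3.3, numpy 2.4.6, scipy 1.17.1 and matplotlib 3.10.9 were used.

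The rule for named genes took the 5 genes, every gene of the 5 pathway lists with a called site, the highest median of each list and the 3 genes most like each of the 5. ATP1B2, ATP1B3, AQP7, SCNN1A, the single marker genes and the genes of the closing section were named with their values known. The 5 genes, the 5 pathway lists and the 10 marker lists were chosen with earlier results of these data known. Some genes of the pathway lists are not reported here, and all counts, medians and plots over the lists leave them out. Basal cell, smooth muscle, fibroblast and macrophage and lymphocyte lists, used in the report only for their called sites, summed to 78.4 to 155, 3660 to 7457, 379.8 to 1482 and 37.3 to 92.5 FPKM.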

Additional observations from a re-analysis of the deposited data

How the results depend on the processing

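All 3 called sites depend on the threshold. With a change of at least 2-fold also required, 0 corpus over caput sites stayed called and the cauda over caput count remained 1, and at an adjusted p under 0.01 the counts were 0 and 0. At an unadjusted p under 0.05, 2 cauda over corpus sites passed in place of 0. With unspliced sites only, candidates classed as m6A numbered 5 in caput, 1 in corpus and 0 in cauda. With high confidence or better they numbered 3, 1 and 0, since the classes below are left out by construction. The other 30 values under an alternative did not move past the limit for a change, though some of them shifted. With unspliced sites only, candidates of any class numbered 37 in caput, 18 in corpus and 21 in cauda, in place of 48, 26 and 28. Of the 15 genes named as alike, 8 stayed with a pseudocount of 0.1, 2 with Spearman's rho and 14 with no filter. Counting whole listed peaks, and leaving out EC2_2, were chosen after seeing the data. No paired analysis was possible because the comparison tables hold no values per library and no label ties the numbers in the input column names, 2, 3 and 4 in both EA and EC, to a replicate or animal. Leaving out single replicates was not possible for the same reason. The depth of the m6A libraries is unknown here, and CFTR and CA12 rest on 14 to 405 fragments per library.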

Other observations

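Several other transport genes of the pathway lists, picked after their values were seen, had ranges that lay apart between input column codes. SCNN1A, the alpha subunit of the epithelial sodium channel, had 4.12 to 5.44 FPKM in the EA libraries, at most 2.61 FPKM in EB and 85.8 to 206 FPKM in EC. TRPV6, an apical calcium channel, had 12.7 to 19.5 FPKM in EA and 0 to 2.57 FPKM in the other 6 libraries. AQP3, a water and glycerol channel, had 0.548 to 1.57 FPKM in EC and 0.036 to 0.215 FPKM elsewhere. Slc26a3, a chloride bicarbonate exchanger, had 8.75 to 12.5 FPKM in EA, 3.78 to 5.09 FPKM in EB and 13.2 to 19.8 FPKM in EC. No code was assigned to a region, and no test was run.

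CA2, the cytosolic carbonic anhydrase, had 6.55 to 15.7 FPKM in EA and 0.463 to 1.26 FPKM in EB. In EC it had 24.6 FPKM in EC2_2 against 2.55 and 1.88 FPKM in the other libraries. That is the library in which CA12 was also highest.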
